A study of Mus musculus with 24 samples.

Results

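Epididymal fat of mice that lack GPR120 was compared with that of wild-type mice after a high-fat diet. The arrays were chosen by their titles, 3 of GPR120 knockout (KO) mice and 3 of wild-type (WT) mice on high-fat diet (HFD), which makes 6 of the 24 arrays of the series. The other arrays hold liver of mice on both diets and fat of mice on normal diet (ND). The 6 ND fat arrays (3 KO and 3 WT) enter here in the fit and in the choice of probe sets and tested genes. They also serve to compare the knockout effect between the diets. KO mice on HFD carried the numbers 427, 428 and 429 and WT mice on HFD the numbers 546, 547 and 560, 1 array per animal, and values are listed in these orders throughout. All mice had a mixed 129/Sv and C57BL/6 background. The sources used here do not give their age, the length of the diet, how the KO allele was made or whether the 2 genotypes were littermates. The title of the series poses the role of GPR120 in diet-induced obesity as its question.

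GPR120, encoded by Ffar4, is a G protein-coupled receptor of the cell surface that long-chain fatty acids activate. In mice it is known from fat cells and macrophages. Its Gq/11 proteins are known to raise calcium and to promote glucose uptake in fat cells. In macrophages the receptor recruits β-arrestin 2, which is known to hold back the kinase TAK1 (Map3k7) downstream of Toll-like receptors. Epididymal fat of obese mice is a mixture of fat cells, macrophages that gather around dying fat cells and digest their remains in lysosomes, vessel cells, fibroblasts and lymphocytes.

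Signals are linear intensity units, and a difference is the log2 signal of KO minus WT ± SE from 1 limma model of the 12 fat arrays (n = 3 per group), positive where KO mice were higher. P-values were adjusted over the 11613 genes tested by the Benjamini-Hochberg method, and a gene was called when its adjusted p was under 0.05. Groups are said to lie apart when the 3 KO values and the 3 WT values did not overlap. In KO fat on HFD 1286 genes were called higher (11.1% of those tested) and 1326 lower (11.4%), so that 22.5% were called in either direction, and 4169 genes had an unadjusted p under 0.05. The groups lay apart in 38% of tested genes and in 2544 of the 2612 called ones. The median log2 difference of all tested genes was -0.0305. Without KO mouse 429 the count of called genes was 1569, and without WT mouse 560 it was 1642. On ND 29 genes were called (0.25%; 1617 at an unadjusted p under 0.05), and for 1273 genes (11%; 3245 at an unadjusted p under 0.05) the knockout effect differed between the diets.

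The 6 arrays carried the label's tissue. Adipoq, which only fat cells are known to express, read 4439 to 6483 in KO fat and 6437 to 7424 in WT fat, and Fabp4 read 7230.2 to 8955 in KO fat and 8522 to 9798 in WT fat. Array medians were 15.3 to 20.0 in KO and 17.1 to 18.8 in WT fat. The first principal component (45.4% of the variance) separated the genotypes while the second (30.2%) separated KO mouse 427 from the rest. By the summed signals of marker lists, 2 arrays stood apart from the rest of their group. KO mouse 427 had 3356 units over 11 epididymis and sperm genes, against 104 and 31.0 in the other KO mice and 122.4 to 246.9 in WT mice, and it was also the highest of the 6 in smooth muscle and mesothelial markers. WT mouse 547 had 5830 units over 10 skeletal muscle genes, against 342.2 to 996 in KO mice and 324.2 and 928.2 in the other WT mice. The 3'/5' signal ratio of the actin control probe sets, which is lower where RNA is more intact, was 0.732 ± 0.0961 in KO and 1.44 ± 0.279 in WT fat on the log2 scale (SD, n = 3). The Gapdh (-0.0774 in KO, 0.0991 in WT) and pyruvate carboxylase (4.28 and 4.68) ratios were also lower on average in KO fat. The transferrin receptor ratio went the other way (3.29 ± 2.1 in KO, 1.85 ± 0.641 in WT), with KO mouse 428 at 5.71. The part of these ratios in any result was not tested. Precision is limited by the number of arrays.

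**Figure D1:**
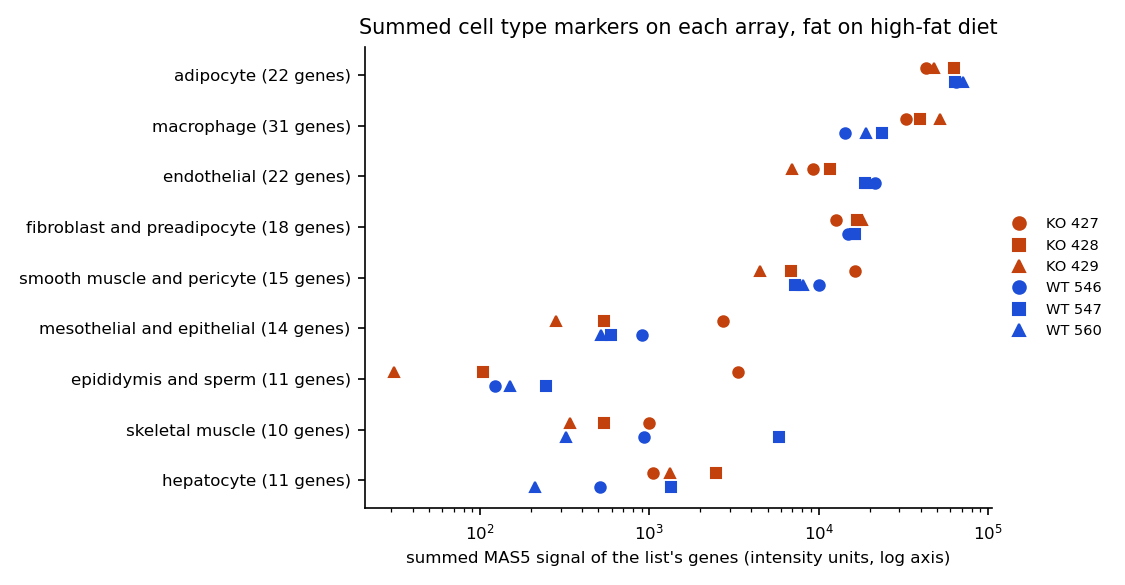
Summed MAS5 signal (x axis, intensity units, log scale) of 9 cell type marker lists on each of the 6 arrays, KO mice in red above WT mice in blue. Macrophage sums of KO mice lie above those of all WT mice and endothelial sums below them, KO mouse 427 stands out in epididymis, smooth muscle and mesothelial markers, and WT mouse 547 in skeletal muscle.

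Macrophage markers were higher and endothelial markers lower in KO fat, and each result below is to be read beside these sums. The 31 macrophage genes summed to 32950, 39560 and 52460 units in KO fat, against 14340, 23780 and 18960 in WT fat. The 22 endothelial genes summed to 9213, 11630 and 6955 units in KO fat, against 21390, 18700 and 19520 in WT fat. The groups lay apart for both sums. The 22 fat cell genes summed to 43280, 63180 and 47980 units in KO fat, against 64880, 64270 and 71490 in WT fat. The groups lay apart here too, with KO mouse 428 just below the lowest WT value. The sums of 18 fibroblast genes overlapped (12600 to 18080 in KO fat, 14830 to 16390 in WT fat). Most other leukocyte sums, which include genes too dim to test, were higher in KO fat with the groups apart. They were 1300 to 2145 in KO and 559.5 to 735.6 in WT fat for T and NK cells. Neutrophil sums were 5718 to 6612 and 3988 to 4283, dendritic cell sums 8747 to 10710 and 5201 to 7402. Mast cell sums were 565.8 to 1557 and 357.2 to 466.1. The B cell sums overlapped. Whether a change in a list reflects the share of a cell type was not tested, and in these bulk samples fewer cells of a type and less RNA per cell cannot be told apart.

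The deleted gene was lower in KO fat. Ffar4, read by 1 probe set, had signals of 26.5, 30.5 and 23.1 in KO fat, against 97.3, 126 and 171 in WT fat. All 3 KO arrays lay below the lowest WT array, with a difference of -2.27 ± 0.21 (adjusted p = 0.000215), and the KO mean was 20.3% of the WT mean. The sources used here do not say whether this probe set reads the stretch that was deleted. Of 20 tested genes next to Ffar4 on chromosome 19, 10 on each side by gene order, 3 were called higher and 4 lower. Over the whole of chromosome 19, 23.7% of 417 tested genes were called, and over all tested genes 22.5%.

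Among other receptors for fatty acids and metabolites, Ffar2, a receptor for short-chain fatty acids, fell too. Its signals were 225, 377 and 159.7 in KO fat, against 519, 511 and 683 in WT fat, a difference of -1.25 ± 0.30 (adjusted p = 0.0126); the groups lay apart, and the call ended without WT mouse 560 (adjusted p = 0.0542). The list of 8 tested receptors of this kind includes Ffar4 itself. Of them 2 were lower, the deleted gene Ffar4 and Ffar2, and 0 higher, with a median difference of -0.949. Over all tested genes 11.4% were called lower, so with Ffar4 set aside the count does not show a wider fall of these receptors. Lower calls numbered 1 without WT mouse 560 and 4 on log2(signal + 16) or with the 6 arrays fitted alone. Among 12 tested partners of GPR120 signalling, 1 was called higher and 2 lower, with a median of -0.0498. This is close to the 22.5% called in either direction over all tested genes. Higher calls numbered 2 without WT mouse 546; lower calls numbered 1 with averaged probe sets. Arrb2, which encodes β-arrestin 2, had 256, 233 and 378 in KO fat, against 103, 129 and 103 in WT fat (1.34 ± 0.24, adjusted p = 0.00303). Prkce, which encodes protein kinase C epsilon, a kinase downstream of Gq, had 136, 142 and 105 in KO fat, against 437, 339 and 417 in WT fat (-1.64 ± 0.18, adjusted p = 0.000508). Gna11, a Gq family α subunit, was lower by a smaller margin (-0.70 ± 0.15, adjusted p = 0.00669). Its paralog Gnaq (-0.26 ± 0.13, adjusted p = 0.187) and Map3k7 (0.40 ± 0.20, adjusted p = 0.164) were not called. The KO and WT arrays lay apart for the 3 called partners.

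**Figure D2:**
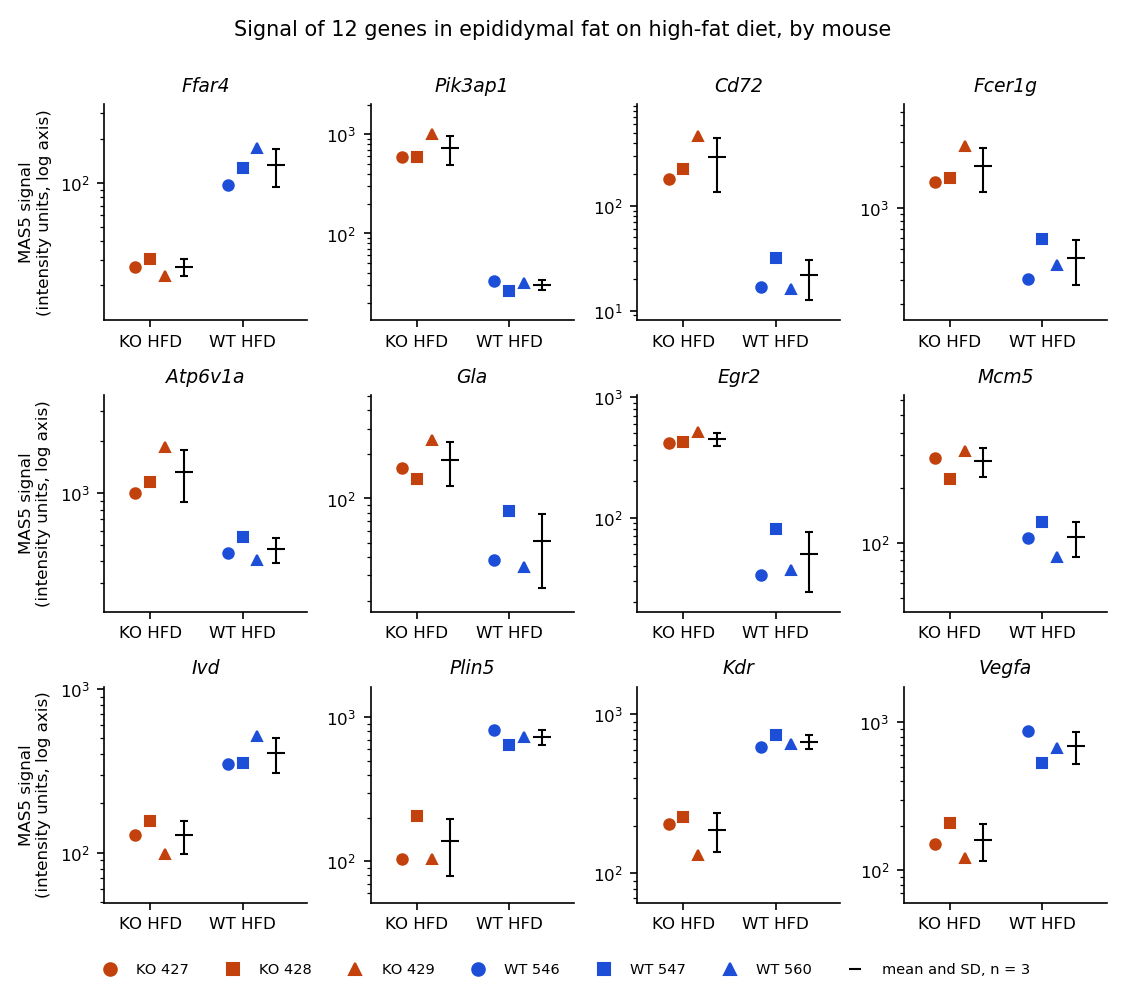
MAS5 signal (y axis, intensity units, log scale) of 12 genes on the 3 KO arrays (red, left) and the 3 WT arrays (blue, right), with the mean and SD of each group (n = 3). Ffar4, Ivd, Plin5, Kdr and Vegfa lie lower in KO mice and the other 7 genes higher, and the groups do not overlap in any of the 12.

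Pik3ap1, which encodes an adaptor that links B cell and Toll-like receptors to phosphoinositide 3-kinase, rose most among genes measured in both groups, with 595, 588 and 1007 in KO fat against 32.8, 26.5 and 31.7 in WT fat (4.55 ± 0.20, adjusted p = 1.6e-06). It was also higher in KO fat on ND (1.95 ± 0.20, adjusted p = 0.00409). Pik3ap1 lies on chromosome 19, as does Ffar4. Of the 16 tested genes between them 2 were higher and 2 lower on HFD, near the 23.7% called over that chromosome, and 0 were called on ND. Zranb3, which encodes a DNA translocase of replication forks, followed with 218, 331 and 964 in KO fat against 22.8, 38.6 and 32.4 in WT fat (3.75 ± 0.43). Rgs1, a brake on chemokine receptor signalling, had 942, 977 and 1702 in KO fat against 72.4, 168 and 86.6 in WT fat (3.51 ± 0.41). In both genes KO mouse 429 was the highest array and the WT mice lay far below every KO mouse. The other named rises were Rnf128 (3.47 ± 0.31), a ubiquitin ligase known from T cells, Stap1 (3.44 ± 0.39), an adaptor of B cells and macrophages, Glipr1 (3.38 ± 0.40), Slc15a3 (3.33 ± 0.53), a lysosomal peptide transporter, and Saa3 (3.51 ± 0.78), an acute phase protein. Saa3 varied widely within the groups, with 1558, 2898 and 962 in KO fat and 53.1, 457 and 121 in WT fat, and WT mouse 547 was the highest WT array for it. Cd72, Atp6v0d2, Timp1, Mmp12, Egr2, Il7r and Cd84, which rose as strongly, are described with their groups.

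Ces1f, a carboxylesterase, fell most among genes measured in both groups, with 69.2, 109.7 and 46.8 in KO fat against 582, 829 and 1416 in WT fat (-3.64 ± 0.36, adjusted p = 0.000243). Its relative Ces1d, which hydrolyses triglyceride in fat cells, had 757, 1374 and 538 in KO fat against 3649, 4754 and 6102 in WT fat (-2.52 ± 0.29). KO mouse 428 was the highest KO array for both esterases and WT mouse 560 the highest WT array. Rbp7, a retinol-binding protein of fat and its vessels, had 451, 879 and 474 in KO fat against 5128, 4859 and 5443 in WT fat (-3.16 ± 0.30). Fam13a (-3.36 ± 0.42), Slc1a3 (-2.90 ± 0.42), a glutamate transporter, and the vanins Vnn1 (-2.51 ± 0.40) and Vnn3 (-2.63 ± 0.37), which release cysteamine from pantetheine, were lower with the groups apart. So were Rflna (-3.0 ± 0.51), the long noncoding RNA Ctcflos (-2.81 ± 0.44), the sialyltransferase gene St6galnac5 (-2.66 ± 0.56) and the galactosyltransferase gene B3galt2 (-2.59 ± 0.61). The call of B3galt2 ended without WT mouse 560 (adjusted p = 0.0526). Cidea, a lipid droplet protein of brown and beige fat, had 21.9, 20.0 and 17.6 in KO fat against 51.4, 157 and 478 in WT fat (-2.99 ± 0.93). The call of Cidea ended without KO mouse 427, KO mouse 428, KO mouse 429, WT mouse 547 or WT mouse 560 and under 4 other alternatives (adjusted p 0.0577 to 0.159), and WT mouse 560 held most of the WT signal. The brown fat gene Ucp1 was spread in the same way over the WT mice (17.1, 123 and 634, against 13.6, 10.5 and 26.9 in KO fat) and was not called.

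Where a group averaged under 19.3 units, the signal of the median probe set, its level is uncertain and a lower bound is given. The bound holds for the ratio of mean signals, the brighter mean over 19.3, and 1 bright array can raise it. Gpr50, an orphan receptor of the melatonin receptor family, was at least 25-fold higher in KO fat (802, 263 and 383 in KO fat against 17.6, 17.4 and 5.41 in WT fat, adjusted p = 0.000657). Dusp5, a nuclear phosphatase of ERK kinases, was at least 7.64-fold higher (315, 57.3 and 70.7 in KO fat against 4.80, 33.0 and 4.48 in WT fat). Fat3, Slc25a13 and B4galnt1 were at least 4.2-fold, 2.5-fold and 1.78-fold higher. KO mouse 427 was the highest array for Gpr50 and Dusp5 and held most of the KO signal of each, so the other KO mice lay below the bounds of both genes. Mycl, a MYC family transcription factor, was at least 4.61-fold lower in KO fat (14, 13.6 and 2.28 in KO fat against 102, 73.1 and 91.7 in WT fat). Tmem88b, Acsm3, Prtn3 and Nxpe2 were at least 4.48-fold, 4.02-fold, 3.87-fold and 1.14-fold lower. The call of Nxpe2 ended without mice 427 and 547 (adjusted p = 0.0569) and without KO mouse 429 (adjusted p = 0.0561). In each of these 10 genes the groups lay apart.

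Activating receptors of myeloid cells and the kinases and adaptors below them were higher in KO fat. Fc receptors bind antibody-coated particles and signal through chains with ITAM motifs, such as those encoded by Fcer1g and Tyrobp, to the kinases Syk and Btk and the lipase Plcg2, while Inpp5d and Pirb act as brakes. Of 21 tested members 14 were called higher and 0 lower, with a median difference of 1.62, and the groups lay apart in 17. The lower count was 1 without the pair of mice 427 and 547 or WT mouse 547. Members of the cascade's whole length were among the higher genes, receptors (Fcgr1, Fcgr3, Fcgr4), chains (Fcer1g, Tyrobp), kinases (Syk, Btk), adaptors (Pik3ap1, Lcp2), effectors (Plcg2, Pik3r5) and inhibitory members (Cd72, Pirb, Inpp5d). Cd72, an inhibitory coreceptor known from B cells, had 179.5, 224 and 466 in KO fat against 16.9, 32.1 and 16.1 in WT fat (3.69 ± 0.36, adjusted p = 0.000243). Fcer1g had 1537, 1660.2 and 2837 in KO fat against 302, 596 and 384 in WT fat (2.24 ± 0.29, adjusted p = 0.00088). KO mouse 429 was the highest KO array and WT mouse 547 the highest WT array for both. The high-affinity receptor Fcgr1 had 231, 186 and 285 in KO fat against 44.3, 64.0 and 38.0 in WT fat (2.28 ± 0.33, adjusted p = 0.00116), and Fcgr3 and Fcgr4 rose by 1.62 ± 0.29 and 2.44 ± 0.41. Among the kinases, Syk had 297, 347 and 615 in KO fat against 69.6, 202 and 110.0 in WT fat (1.79 ± 0.37, adjusted p = 0.00651), and Btk rose by 1.78 ± 0.36. The other called members were Tyrobp (1.68 ± 0.28), Pirb (2.41 ± 0.46), Pik3r5 (1.43 ± 0.38), Inpp5d (1.40 ± 0.22), Lcp2 (1.08 ± 0.30) and Plcg2 (0.91 ± 0.15), with the groups apart in each. KO mouse 429 was the highest KO array in 13 of the 14 called members. The call of Pik3r5 ended without KO mouse 429, WT mouse 546 or WT mouse 560 (adjusted p 0.0675 to 0.0939). That of Lcp2 ended without KO mouse 427, KO mouse 429, WT mouse 546 or WT mouse 560 (adjusted p 0.0569 to 0.102).

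PU.1, a transcription factor that myeloid cells and B cells need, binds purine-rich sites, and the 8 letters GAGGAAGT are 1 form of them. On either strand they occurred in 6 of 22 promoters of this list (27.3%) and in 887 of all 27025 promoters (3.28%), each reaching 250 bases before and 50 after the gene's start. In the leukocyte actin list below they occurred in 2 of 15 (13.3%) and in the macrophage list in 4 of 23 (17.4%). Neither of the 2 carriers in the actin list, Arpc1b and Itgb7, was tested. The called carriers in the Fc receptor list were Cd72, Fcgr4, Inpp5d and Pirb, while Pik3cg was not called (0.67 ± 0.26) and Vav1 was not tested. The promoters of Cd72 and Inpp5d are shown because both are brakes of the cascade and carry the letters near the start, at -49 and -20. Capitals mark the match, which alone does not show binding. The sequences are those of RefSeq on GRCm38.p6, at chr4:43454577-43454876 (minus strand) for Cd72 and chr1:87620062-87620361 (plus strand) for Inpp5d.
Cd72: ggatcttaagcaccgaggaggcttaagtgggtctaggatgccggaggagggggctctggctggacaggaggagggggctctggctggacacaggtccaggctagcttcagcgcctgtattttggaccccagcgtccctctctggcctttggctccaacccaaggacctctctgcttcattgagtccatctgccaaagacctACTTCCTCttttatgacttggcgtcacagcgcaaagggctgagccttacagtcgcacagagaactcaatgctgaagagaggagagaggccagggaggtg
Inpp5d: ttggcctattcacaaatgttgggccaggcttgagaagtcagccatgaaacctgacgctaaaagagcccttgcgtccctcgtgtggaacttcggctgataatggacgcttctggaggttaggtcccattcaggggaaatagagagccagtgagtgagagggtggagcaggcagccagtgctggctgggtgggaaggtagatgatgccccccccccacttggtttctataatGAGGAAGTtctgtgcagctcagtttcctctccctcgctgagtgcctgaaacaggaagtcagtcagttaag

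Genes that build the actin skeleton and the integrin contacts of leukocytes were higher too. Of 17 tested members 14 were called higher and 0 lower, all 17 differences were above 0, and the median was 1.64. Lcp1, which encodes the actin bundler L-plastin, had 1316, 1433 and 2506 in KO fat against 247, 496 and 271 in WT fat (2.39 ± 0.28, adjusted p = 0.00059). Dock2, the exchange factor that activates the GTPase Rac in leukocytes, had 329, 362 and 439 in KO fat against 53.2, 115 and 56.2 in WT fat (2.42 ± 0.33, adjusted p = 0.000974), and Rac2 itself rose by 2.0 ± 0.36. Both genes lay apart by more than the spread within either group. Coro1a (2.08 ± 0.29), the β2 integrin Itgb2 (2.14 ± 0.41) and the pan-leukocyte phosphatase Ptprc (1.77 ± 0.25), known as CD45, followed. The capping protein gene Capg rose by 2.02 ± 0.25. The call of Capg ended when its probe sets were averaged (adjusted p = 0.167). Fermt3, Was, Selplg, Arhgdib, Cytip and Itga4 were also called, with differences of 1.19 to 1.75.

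Sensors of microbial molecules rose in part. Of 19 tested members of pattern recognition and NF-kB signalling 8 were higher and 0 lower, with a median of 0.562. Higher calls numbered 5 with averaged probe sets. Tlr1, which pairs with Tlr2 to sense bacterial lipopeptides, had 168, 171 and 199.8 in KO fat against 29.4, 41.9 and 39.8 in WT fat (2.29 ± 0.20, adjusted p = 0.000189), and Tlr2 rose by 1.30 ± 0.20. Tlr13, which senses bacterial RNA in endosomes, rose by 2.90 ± 0.48, and Tlr4, the receptor for lipopolysaccharide, was not called (114, 142 and 167 in KO fat, 95.2, 161 and 122 in WT fat, 0.18 ± 0.26). The inflammasome genes Casp1 (1.43 ± 0.21) and Pycard (1.95 ± 0.30) rose. The call of Pycard ended when its probe sets were averaged (adjusted p = 0.0559). Of the negative regulators of NF-kB, Tnfaip3 rose by 0.77 ± 0.14, a call that ended when its probe sets were averaged (adjusted p = 0.172), and Nfkbia was not called (-0.09 ± 0.19, adjusted p = 0.775).

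Chemokines that draw monocytes were among the higher genes. Of 19 tested chemokines 10 were higher and 0 lower, with a median of 0.92; the count was 6 without WT mouse 546 and 5 without WT mouse 560. Ccl2, the main ligand of the monocyte receptor CCR2, had 409.6, 464 and 739 in KO fat against 82.3, 186 and 58.8 in WT fat (2.43 ± 0.45, adjusted p = 0.00358). Ccl8 had 1511, 1046 and 1309 in KO fat against 524, 519 and 477 in WT fat (1.33 ± 0.23, adjusted p = 0.00269). The KO values of both lay above every WT value. Cxcl14 (2.48 ± 0.50), Cxcl16 (1.24 ± 0.22), Ccl7 (1.89 ± 0.49) and the T cell attractant gene Ccl5 (1.29 ± 0.37) were also called. The call of Ccl7 ended without KO mouse 429 (adjusted p = 0.0709) and without WT mouse 560 (adjusted p = 0.0678), and that of Ccl5 ended without KO mouse 427, WT mouse 546 or WT mouse 560 (adjusted p 0.0753 to 0.103). On ND all 19 differences were above 0, none called, with a median of 0.455, and no chemokine had a called interaction. Of 9 tested chemokine receptors 3 were higher and 1 lower. The higher count was 1 without KO mouse 429 or WT mouse 546 or with averaged probe sets. Cx3cr1, the fractalkine receptor, was at least 2.08-fold higher (48.0, 34.2 and 38.2 in KO fat, 14.7, 20.0 and 16.5 in WT fat). The scavenging receptor Ackr3 was lower (542, 639 and 441 in KO fat against 1046, 764 and 957 in WT fat, -0.77 ± 0.16). Ccr2 (1.06 ± 0.44, adjusted p = 0.109) and Ccr1 (0.56 ± 0.42, adjusted p = 0.367) were not called, and WT mouse 547 alone reached the KO values of Ccr2.

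Of 14 tested complement genes 5 were higher and 1 lower. C3ar1, the receptor for the C3a fragment on myeloid cells, had 841, 1068 and 1845 in KO fat against 95.5, 254 and 169 in WT fat (2.89 ± 0.39, adjusted p = 0.000944). The 3 genes of the C1q recognition protein, C1qa (1.06 ± 0.23), C1qb (1.38 ± 0.24) and C1qc (1.48 ± 0.23), rose together. C2, a protease of the classical pathway, fell (269.7, 231 and 143 in KO fat against 753, 363 and 758 in WT fat, -1.51 ± 0.29, adjusted p = 0.00431). Of 13 tested cytokine and mediator genes 4 were higher and 0 lower. They were Saa3, Alox5ap (1.38 ± 0.31), which serves leukotriene synthesis, Il18 (0.97 ± 0.23) and Tgfb1 (0.98 ± 0.29). The call of Tgfb1 ended without KO mouse 428, KO mouse 429, WT mouse 546, WT mouse 547 or WT mouse 560 and under 3 other alternatives (adjusted p 0.0566 to 0.119). Tnf, Il1b and Il6 lay under the signal level set for testing. Of 23 tested interferon-induced genes 0 were higher and 2 lower, and the median was 0.0929. The higher count was 1 without KO mouse 428 or WT mouse 560, 2 with averaged probe sets or with the 6 arrays fitted alone and 3 on log2(signal + 16). The 2 were Irf1 (-0.53 ± 0.16), whose call ended without KO mouse 427, KO mouse 429, WT mouse 546, WT mouse 547 or WT mouse 560 and under 3 other alternatives (adjusted p 0.0543 to 0.202), and Xaf1 (-0.72 ± 0.19). The probe sets of Xaf1 disagreed: their mean was higher in KO fat (log2 1.87, adjusted p = 0.000423), and the call of the brightest was lost without KO mouse 428 (adjusted p = 0.0654) or WT mouse 546 (adjusted p = 0.0732). Irf7, a master regulator of the response, was not called (43.3, 40.2 and 56.3 in KO fat, 28.7, 22.5 and 35.3 in WT fat, adjusted p = 0.0672).

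Markers of other leukocytes were mostly too dim to test. Of 13 tested genes of dendritic cells and antigen presentation 6 were higher and 1 lower. Higher calls numbered 3 without KO mouse 428, KO mouse 429, WT mouse 546 or WT mouse 560 or with the 6 arrays fitted alone; lower calls numbered 0 without the pair of mice 427 and 547, KO mouse 429 or WT mouse 560 or with averaged probe sets. Itgax, which encodes CD11c of dendritic cells and fat macrophages, had 339, 567 and 1091 in KO fat against 63.2, 78.4 and 66.5 in WT fat (3.11 ± 0.41, adjusted p = 0.000928). Irf8 (1.56 ± 0.22) and the invariant chain gene Cd74 (1.22 ± 0.20) rose, and H2-Aa was not called (0.40 ± 0.17, adjusted p = 0.103). Of 6 tested mast cell genes Hpgds (2.79 ± 0.46) and the protease gene Cpa3 (2.34 ± 0.42) were among 3 called higher, and the stem cell factor receptor gene Kit was not called (-0.36 ± 0.26). The higher count was 5 with no filter. Cpa3 had 173, 135 and 483 in KO fat against 39.7, 37.9 and 57.7 in WT fat, with KO mouse 429 the highest. Of 25 T and NK cell genes only 6 could be tested. Il7r, the interleukin 7 receptor, was higher (559.6, 903 and 1508 in KO fat against 50.7, 213 and 62.5 in WT fat, 3.38 ± 0.55), and Cd8a was not called (-0.34 ± 0.47). Zap70, a T cell kinase, was lower (-1.77 ± 0.52), but the mean of its probe sets gave 0.541 (adjusted p = 0.359), and the call ended without KO mouse 427, KO mouse 429, WT mouse 546 or WT mouse 560 and under 3 other alternatives (adjusted p 0.0511 to 0.359). Of 6 tested B cell genes the adaptor Blnk (2.19 ± 0.20), which macrophages also express, was the clearer of 2 higher ones. Higher calls numbered 1 without KO mouse 429 or WT mouse 560 or with averaged probe sets. In the neutrophil list S100a8 was higher (1405, 1249.6 and 564 in KO fat, 313, 191 and 121 in WT fat, 2.37 ± 0.70), and Csf3r was not called (1.0 ± 0.33, adjusted p = 0.0509). The call of S100a8 ended without KO mouse 427, KO mouse 428, WT mouse 547 or WT mouse 560 and under 2 other alternatives (adjusted p 0.0526 to 0.122).

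Not every macrophage marker was higher. Of 27 tested macrophage genes 21 were higher and 2 lower, with a median of 1.54, and the groups lay apart in 25. Ms4a7 (2.19 ± 0.21), the β-glucan receptor Clec7a (2.13 ± 0.25), Adgre1 (2.24 ± 0.28) and Cd84 (3.26 ± 0.48) were far higher, with the WT arrays well below. The 2 lower genes, Cd163 and Lyve1, are known from resident macrophages, and Lyve1 also marks lymphatic vessels. Cd163 had 179, 313 and 259 in KO fat against 411, 576 and 493 in WT fat (-1.0 ± 0.27, adjusted p = 0.0215). Lyve1 had 245, 389 and 236 in KO fat against 452, 828 and 569.7 in WT fat (-1.08 ± 0.25, adjusted p = 0.0108). Every KO array was below every WT array for both. The call of Cd163 ended without KO mouse 427, KO mouse 429, WT mouse 547 or WT mouse 560 and under 1 other alternative (adjusted p 0.0532 to 0.133), and that of Lyve1 ended without mice 427 and 547 (adjusted p = 0.0648). Mrc1 (0.81 ± 0.18), also known from resident macrophages, went the other way. Whether the 2 lower genes stand for a cell type was not tested. Csf1r (0.47 ± 0.14), which nearly all tissue macrophages express, rose too. The call of Csf1r ended without KO mouse 428, KO mouse 429, WT mouse 546 or WT mouse 560 and under 2 other alternatives (adjusted p 0.0553 to 0.132). Genes of lipid-laden macrophages and osteoclasts gave 11 higher and 0 lower of 16 tested, with a median of 1.6. Ctsk, a collagen-degrading cathepsin, had 1316, 1250.4 and 3270.2 in KO fat against 191, 309 and 251 in WT fat (2.83 ± 0.34). Gpnmb had 2609, 3131 and 5631 in KO fat against 215, 859.5 and 583 in WT fat (2.91 ± 0.44). Nceh1, a cholesterol ester hydrolase, rose by 2.39 ± 0.34. Trem2, a receptor for lipids on such cells, was higher by 2.69 ± 0.73. The call of Trem2 ended without KO mouse 429, WT mouse 546 or WT mouse 560 (adjusted p 0.0621 to 0.0935).

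Enzymes of the lysosome and the proton pump that acidifies it were higher in KO fat. The vacuolar proton pump has a V1 part in the cytosol, which hydrolyses ATP, and a V0 part in the membrane, which carries protons. All 16 tested pump genes had differences above 0, 10 were called higher and 0 lower, and the median was 0.589. Higher calls numbered 5 without WT mouse 546 or WT mouse 560 and 6 without KO mouse 429 or with the 6 arrays fitted alone. Atp6v0d2, a V0 subunit of osteoclasts and macrophages, had 1119, 1364 and 2697 in KO fat against 60.7, 289 and 118 in WT fat (3.65 ± 0.48, adjusted p = 0.000893). Its widely expressed paralog Atp6v0d1 had 960.1, 999 and 1357 in KO fat against 828, 889.8 and 786 in WT fat, and was not called (0.39 ± 0.14, adjusted p = 0.0618). KO mouse 429 was the highest array for both. The catalytic V1 subunit Atp6v1a had 994, 1156 and 1842 in KO fat against 445, 553 and 408 in WT fat (1.47 ± 0.20, adjusted p = 0.000944). Atp6v1b2, its partner in the catalytic ring, rose by 1.36 ± 0.21. The call of Atp6v1b2 ended when its probe sets were averaged (adjusted p = 0.185). Tcirg1, the V0 a-subunit of osteoclasts and immune cells, rose by 1.5 ± 0.25 and Atp6v1c1 by 1.28 ± 0.25. Atp6v0b, a proton-carrying ring subunit, rose by 1.0 ± 0.26. The call of Atp6v0b ended without WT mouse 546 (adjusted p = 0.0574) and without WT mouse 560 (adjusted p = 0.0596).

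Of 26 tested lysosomal hydrolase and membrane genes 11 were higher and 0 lower, with a median of 0.659 and the groups apart in 21. The lower count was 1 without KO mouse 428. Gusb, which encodes β-glucuronidase, had 1105, 1457 and 2509.9 in KO fat against 331, 559 and 318 in WT fat (2.03 ± 0.29, adjusted p = 0.00106). Lipa, the acid lipase that frees fatty acids and cholesterol in lysosomes, had 1384, 1714 and 2826 in KO fat against 557, 814 and 594 in WT fat (1.55 ± 0.24, adjusted p = 0.00164). Gla, which encodes α-galactosidase A, had 160.4, 136 and 252 in KO fat against 38.0, 82.6 and 33.8 in WT fat (1.90 ± 0.33, adjusted p = 0.00265). All 3 were highest in KO mouse 429, and in WT fat highest in mouse 547. Psap, the precursor of proteins that help break down sphingolipids, had 4783, 5711 and 6516 in KO fat against 2918, 3425 and 2857 in WT fat, a smaller but even difference (0.88 ± 0.12, adjusted p = 0.000972). Man2b1 (1.08 ± 0.18), Naglu (0.97 ± 0.19), Hexa (0.92 ± 0.19) and the acid ceramidase gene Asah1 (0.65 ± 0.15) were also called. The membrane protein gene Lamp1 (0.45 ± 0.15, adjusted p = 0.0504) and the cathepsin gene Ctsb (0.42 ± 0.17, adjusted p = 0.0952) were not, though their groups lay apart.

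Many lysosomal genes carry the E-box TCACGTGA, the core of the CLEAR element that the factor TFEB binds. The letters, which read the same on both strands, occurred in 3 of 22 promoters of lysosomal genes (13.6%), in 3 of 12 promoters of pump genes (25%) and in 272 of all 27025 (1.01%). Gla, with 2 matches of which the first starts at -228, and Atp6v1a, with 1 at -132, are shown because both were called under every alternative. Ctsd, the other called carrier, rose by 0.80 ± 0.20, and 3 carriers were not called, the pump genes Atp6v0d1 and Atp6v0e (0.30 ± 0.14, adjusted p = 0.135) and the lysosomal channel gene Mcoln1 (0.23 ± 0.22, adjusted p = 0.503), so that 1 of the 3 pump carriers was called. The call of Ctsd ended without KO mouse 429, WT mouse 546 or WT mouse 560 (adjusted p 0.0516 to 0.0554). Capitals mark the matches in the RefSeq sequences of GRCm38.p6, at chrX:134600956-134601255 (minus strand) for Gla and chr16:44139210-44139509 (minus strand) for Atp6v1a.
Gla: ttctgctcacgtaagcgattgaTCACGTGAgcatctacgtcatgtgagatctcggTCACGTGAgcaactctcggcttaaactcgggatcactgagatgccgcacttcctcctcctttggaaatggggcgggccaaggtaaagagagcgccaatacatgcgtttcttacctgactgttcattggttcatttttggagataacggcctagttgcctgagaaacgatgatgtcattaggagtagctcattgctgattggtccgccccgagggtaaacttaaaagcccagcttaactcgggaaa
Atp6v1a: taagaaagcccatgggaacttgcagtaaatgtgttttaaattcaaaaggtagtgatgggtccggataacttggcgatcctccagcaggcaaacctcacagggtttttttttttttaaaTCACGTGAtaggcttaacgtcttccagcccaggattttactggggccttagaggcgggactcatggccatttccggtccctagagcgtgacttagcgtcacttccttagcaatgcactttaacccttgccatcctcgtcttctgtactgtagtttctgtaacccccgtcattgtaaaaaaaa

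Proteases that cut the matrix and collagens were higher in KO fat, and inhibitors of the proteases moved both ways. Of 19 tested metalloproteinase, plasminogen and inhibitor genes 11 were higher and 2 lower, 7 higher without KO mouse 429 or WT mouse 546. Mmp12, the macrophage elastase, had 1357, 1941 and 5195 in KO fat against 165, 524 and 111 in WT fat (3.49 ± 0.71, adjusted p = 0.00582). Plau, which encodes urokinase, had 263, 228 and 388 in KO fat against 67.6, 61.1 and 87.1 in WT fat (2.0 ± 0.20, adjusted p = 0.000243). The metalloproteinase genes Mmp3 (2.57 ± 0.47), Mmp14 (1.35 ± 0.27) and Mmp2 (1.23 ± 0.28) rose with the groups apart. The 4 tissue inhibitors of metalloproteinases split. Timp1 had 363, 681 and 1081 in KO fat against 30.8, 131 and 37.0 in WT fat (3.60 ± 0.50, adjusted p = 0.00103), and Timp2 rose slightly (0.44 ± 0.13, adjusted p = 0.0295). The call of Timp2 ended without KO mouse 429, WT mouse 546 or WT mouse 547 and under 2 other alternatives (adjusted p 0.0729 to 0.108). Timp3 had 619, 821 and 443 in KO fat against 1316, 1534 and 1391 in WT fat (-1.21 ± 0.24, adjusted p = 0.00463). Timp4, known from fat cells, had 716, 1313 and 372 in KO fat against 2899, 2689 and 2093 in WT fat (-1.85 ± 0.43, adjusted p = 0.0112). KO mouse 429 was the lowest array for Timp3 and Timp4 and the highest for Timp1 and Timp2.

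All 18 tested collagen genes had differences above 0, 9 of them called, with a median of 0.692. Col1a1, the main chain of fibrillar collagen I, had 682, 521 and 736 in KO fat against 178, 216 and 187 in WT fat (1.73 ± 0.24, adjusted p = 0.00096). The chains of collagen VI, which surrounds fat cells, rose alike: Col6a1 by 1.06 ± 0.16, Col6a2 by 1.15 ± 0.20 and Col6a3 by 1.27 ± 0.23. Col4a1 of basement membranes was not called (2755, 3512 and 3082 in KO fat, 2888, 3159 and 2506 in WT fat, 0.13 ± 0.20). On ND the median over the list was 0.9 with 0 called, and 0 of 18 had a called interaction, so a difference between the diets was not detected for collagens. Of 29 matrix assembly genes 7 were higher and 2 lower. Higher calls numbered 2 without KO mouse 429 or WT mouse 546, 4 without WT mouse 560, with no filter or with the 6 arrays fitted alone and 11 without the pair of mice 427 and 547; lower calls numbered 0 with averaged probe sets and 1 without KO mouse 429, WT mouse 546 or WT mouse 560, under quantile normalization or with no filter. Lum, a proteoglycan that orders collagen fibrils, had 1577, 1689.5 and 3057 in KO fat against 396, 502 and 565 in WT fat (2.06 ± 0.24), and the crosslinking enzyme gene Plod1 rose by 0.86 ± 0.20. Lox (0.20 ± 0.20), Sparc (-0.01 ± 0.16) and Fn1 (0.92 ± 0.31, adjusted p = 0.0539) were not called. Lama4, a laminin chain of vessel and fat cell basement membranes, was lower (-0.73 ± 0.13, 354, 437 and 479.7 in KO fat against 706, 716 and 669 in WT fat, adjusted p = 0.00331). The call of Lama4 ended when its probe sets were averaged (adjusted p = 0.0952). Of 17 fibroblast genes 3 were higher and 0 lower, a share below the 22.5% called over all tested genes. They were Fbln2 (0.93 ± 0.20), Fap (1.01 ± 0.29) and Pdgfra (0.59 ± 0.17). The call of Fbln2 ended when its probe sets were averaged (adjusted p = 0.463). That of Fap ended without KO mouse 428, KO mouse 429, WT mouse 546 or WT mouse 560 (adjusted p 0.0596 to 0.11), and that of Pdgfra ended without KO mouse 429 or WT mouse 546 and under 1 other alternative (adjusted p 0.0817 to 0.11). The higher count was 1 without WT mouse 546 and 5 without the pair of mice 427 and 547 or KO mouse 427. Dpp4 (0.52 ± 0.21) and Pi16 (-0.30 ± 0.50) were not called.

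The breakdown of branched-chain amino acids was the metabolic list with the most lower members. Fat cells take leucine, isoleucine and valine through a transaminase and the branched-chain ketoacid dehydrogenase (E1 subunits Bckdha and Bckdhb, E2 core Dbt, activated by the phosphatase Ppm1k), after which separate enzymes handle each carbon chain. Of 21 tested members 16 were called lower and 0 higher, all 21 differences were below 0, and the median was -0.685. The count was 9 without KO mouse 429 or WT mouse 560 and 10 without the pair of mice 427 and 547. In the dehydrogenase, Bckdha had 191, 248 and 133 in KO fat against 424, 389 and 601 in WT fat (-1.33 ± 0.24, adjusted p = 0.00355). Dbt, the E2 core, had 147, 170.3 and 98.5 in KO fat against 269, 286 and 525 in WT fat (-1.35 ± 0.27). Bckdhb had 449, 718 and 517 in KO fat against 853, 923 and 1024 in WT fat (-0.76 ± 0.18). Ppm1k had 76.5, 74.9 and 66.3 in KO fat against 127, 201 and 194 in WT fat (-1.23 ± 0.24). The groups lay apart for all 4 genes, KO mouse 429 being lowest in 3 of them. On the leucine branch, Ivd, the isovaleryl-CoA dehydrogenase, had 128, 157 and 98.8 in KO fat against 346, 353 and 517 in WT fat (-1.66 ± 0.19, adjusted p = 0.000508). Mccc2, a subunit of the carboxylase that acts next, was lower by less (-0.68 ± 0.17). The call of Mccc2 ended without KO mouse 429, WT mouse 546 or WT mouse 560 and under 1 other alternative (adjusted p 0.0501 to 0.0571). On the valine branch, Hibch had 337, 467 and 247 in KO fat against 853, 911 and 1376 in WT fat (-1.6 ± 0.22, adjusted p = 0.00106), followed by Hibadh (-0.92 ± 0.20) and Aldh6a1 (-1.15 ± 0.26). On the isoleucine branch, Acadsb had 272, 303 and 194 in KO fat against 530.2, 501 and 681 in WT fat (-1.16 ± 0.19, adjusted p = 0.00191). Acat1 had 1146, 1404 and 986 in KO fat against 2252, 2130.2 and 2109 in WT fat (-0.89 ± 0.15, adjusted p = 0.00226). Pcca, of the propionyl-CoA carboxylase where valine and isoleucine carbons meet, was lower (-0.61 ± 0.16). The call of Pcca ended without KO mouse 427, KO mouse 429 or WT mouse 560 and under 2 other alternatives (adjusted p 0.0522 to 0.0892). KO mouse 428 was the highest KO array in 15 of the 16 called members and WT mouse 560 the highest WT array in 14. The call of Bckdhb ended without KO mouse 429 or WT mouse 560 and under 1 other alternative (adjusted p 0.0511 to 0.0635). On ND the median was 0.162 with 0 called, and 11 of the 21 had a called interaction, Ivd (-2.06, adjusted p = 0.0033) and Hibch (-1.91, adjusted p = 0.00642) among them.

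Genes of enzymes that release fatty acids from fat cells were lower in part. Triglyceride is split by the lipases encoded by Pnpla2 (with its coactivator Abhd5), Lipe and Mgll, under control of cyclic AMP. Of 15 tested members of this list 8 were lower and 0 higher, with a median of -0.819. Lower calls numbered 3 without KO mouse 429 or WT mouse 560, 4 without WT mouse 546 or with averaged probe sets and 5 without the pair of mice 427 and 547 or KO mouse 427. Lipe, the hormone-sensitive lipase, had 337, 526 and 242 in KO fat against 825, 819 and 836 in WT fat (-1.24 ± 0.28, adjusted p = 0.00929). Pnpla2 had 1029, 1632 and 1079 in KO fat against 2009, 2348 and 2566 in WT fat (-0.91 ± 0.18, adjusted p = 0.00493). The WT arrays lay above all KO arrays for both. The call of Lipe ended when its probe sets were averaged (adjusted p = 0.972), and that of Pnpla2 ended when its probe sets were averaged (adjusted p = 0.13). Pde3b, the phosphodiesterase through which insulin restrains lipolysis, had 1551, 2121 and 1018 in KO fat against 3086, 2694 and 3759 in WT fat (-1.07 ± 0.22, adjusted p = 0.00694), so that genes on both sides of the control were lower. Abhd5 was lower too (-0.82 ± 0.21). The call of Abhd5 ended without KO mouse 429 or WT mouse 560 and under 1 other alternative (adjusted p 0.0623 to 0.222). Mgll was lower by less (-0.60), and its call ended under 8 alternatives (adjusted p 0.0588 to 0.181). None of Pnpla2, Abhd5, Lipe and Mgll kept its call under every alternative.

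Genes of triglyceride synthesis and lipid droplets gave 8 lower and 2 higher of 18 tested, with a median of -0.623. Higher calls numbered 1 without the pair of mice 427 and 547, KO mouse 428, WT mouse 546, WT mouse 547 or WT mouse 560, with no filter or with the 6 arrays fitted alone; lower calls numbered 5 without the pair of mice 427 and 547, KO mouse 429 or WT mouse 560. Plin5, a droplet coat protein that tethers mitochondria, had 104, 207 and 103 in KO fat against 815, 642 and 729 in WT fat (-2.48 ± 0.30, adjusted p = 0.000652). Mogat1, a monoacylglycerol acyltransferase, had 27.2, 67.1 and 29.1 in KO fat against 178, 148 and 207 in WT fat (-2.23 ± 0.33, adjusted p = 0.00125). The coat proteins moved in opposite directions. Plin4, abundant on droplets of mature fat cells, was lower (-1.18 ± 0.32), and its call ended without KO mouse 427, KO mouse 429, WT mouse 546 or WT mouse 560 and under 1 other alternative (adjusted p 0.0523 to 0.0926). Plin3, present in most cells, was higher (224, 189 and 277 in KO fat against 95.7, 143 and 103 in WT fat, 1.02 ± 0.18). Fitm2 (-1.16 ± 0.24), which helps droplets bud, and Gpam (-0.91 ± 0.19), the first acyltransferase of the pathway, fell. Agpat2, the next enzyme, was higher (0.58 ± 0.18). The call of Agpat2 ended without KO mouse 428, WT mouse 546, WT mouse 547 or WT mouse 560 and under 3 other alternatives (adjusted p 0.0538 to 0.111). Cidec, which fuses droplets (-0.62 ± 0.28), and Dgat2, which makes triglyceride (0.15 ± 0.32), were not called.

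Of 18 tested genes of fatty acid synthesis 5 were higher and 5 lower. Higher calls numbered 2 without the pair of mice 427 and 547, KO mouse 428, WT mouse 546 or WT mouse 547 and 3 with no filter or with averaged probe sets. Fasn, the synthase, had 966, 2144 and 1115 in KO fat against 343, 479 and 599.9 in WT fat (1.52 ± 0.29, adjusted p = 0.00425). Scd2, a desaturase of many cell types, had 2281, 3169 and 1818 in KO fat against 755, 735 and 399.7 in WT fat (1.96 ± 0.25, adjusted p = 0.000735). KO mouse 428 was the highest array for both. Acaca, which makes malonyl-CoA for the synthase, fell (169.6, 293 and 232 in KO fat against 462, 459 and 718 in WT fat, -1.24 ± 0.21, adjusted p = 0.00244). So did Acacb, its mitochondrial paralog (-2.42 ± 0.31), Elovl5 (-0.51 ± 0.11) and the carbohydrate-sensing factor gene Mlxipl (-1.24 ± 0.28). The call of Acacb ended when its probe sets were averaged (adjusted p = 0.182). Scd1, the main desaturase of fat cells, was not called (-0.09 ± 0.19). Of 22 tested genes of fatty acid oxidation 7 were lower and 0 higher, with a median of -0.49. The carnitine shuttle genes Slc25a20 (933, 1019.9 and 993 in KO fat against 1504, 1519 and 1991 in WT fat, -0.76 ± 0.15) and Cpt2 (-1.06 ± 0.21), and the acyl-CoA dehydrogenase genes Acadvl (-0.84 ± 0.18) and Acads (-0.64 ± 0.15) were among them. The call of Cpt2 ended when its probe sets were averaged (adjusted p = 0.409). Of 19 genes of fatty acid uptake 2 were lower, near the 11.4% called lower over all tested genes. Higher calls numbered 1 without the pair of mice 427 and 547 or KO mouse 427; lower calls numbered 1 without KO mouse 427, KO mouse 429 or WT mouse 560 and 4 without KO mouse 428. Gpihbp1, which anchors lipoprotein lipase on capillaries, fell (1042, 1682 and 916 in KO fat against 3714, 3545 and 3843 in WT fat, -1.66 ± 0.27). The fatty acid translocase gene Cd36 (-0.17 ± 0.18), Lpl (-0.11 ± 0.15) and Cav1 (-0.07 ± 0.19) were not called.

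Glycolysis genes gave 7 higher and 3 lower of 20 tested. Pfkfb4, which makes the activator of phosphofructokinase, had 178, 200.4 and 253 in KO fat against 55.5, 72.6 and 58.5 in WT fat (1.75 ± 0.18, adjusted p = 0.000303). The leukocyte hexokinase gene Hk3 had 253, 352 and 704 in KO fat against 70.7, 133 and 81.2 in WT fat (2.12 ± 0.37). The KO values exceeded all WT values. Tpi1 (0.83 ± 0.12), Pkm (1.01 ± 0.21) and Ldha (0.51 ± 0.11) rose, and the lactate transporter gene Slc16a1 was lower (-0.86 ± 0.20). The call of Slc16a1 ended without KO mouse 429 and under 2 other alternatives (adjusted p 0.0511 to 0.566). Of the glycolysis genes lower calls numbered 0 without KO mouse 429 and 1 without WT mouse 546 or with the 6 arrays fitted alone. The insulin-responsive glucose transporter gene Slc2a4 was not called (149.9, 137 and 55.4 in KO fat, 182, 123 and 190.0 in WT fat, -0.63 ± 0.34), nor were Hk2 (-0.26 ± 0.18) and Slc2a1 (0.18 ± 0.20). Of 22 respiratory chain genes 7 were lower and 1 higher, with a median of -0.339. Higher calls numbered 0 without the pair of mice 427 and 547, KO mouse 427, KO mouse 429, WT mouse 546 or WT mouse 560 or with the 6 arrays fitted alone; lower calls numbered 2 with the 6 arrays fitted alone, 3 without the pair of mice 427 and 547, KO mouse 429 or WT mouse 560 and 4 without KO mouse 427 or with no filter. Ndufv1 (-0.61 ± 0.11) and Ndufb8 (-0.58 ± 0.12) of complex I fell, and Uqcrfs1 of complex III was lower (-0.50 ± 0.11). The call of Uqcrfs1 ended with the 6 arrays fitted alone (adjusted p = 0.0513), and Atp5b (-0.39 ± 0.17) and Cox5b (-0.23 ± 0.12) were not called. Of 20 citrate cycle genes 4 were lower by small margins (-0.58 for Suclg2), and Cs, the citrate synthase, was not (0.13 ± 0.11). Over all tested genes 22.5% were called in either direction, so this share is not unusual. Lower calls numbered 1 with the 6 arrays fitted alone and 2 without the pair of mice 427 and 547, KO mouse 429 or WT mouse 560. Among 14 genes of mitochondrial biogenesis and heat production 2 were lower and 0 higher, a share below the 22.5% called over all tested genes. Of these Ucp3 fell (39.5, 42.6 and 36.8 in KO fat against 90.5, 91.4 and 112 in WT fat, -1.30 ± 0.29), and Tfam was not called (-0.02 ± 0.13). The lower count was 1 without KO mouse 428, KO mouse 429 or WT mouse 560, under quantile normalization, with no filter or on log2(signal + 16).

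Transcription factors of fat cells and insulin signalling genes were lower in part. Of 23 tested factors 7 were lower and 0 higher, with a median of -0.427. Higher calls numbered 1 without KO mouse 428; lower calls numbered 3 without KO mouse 429 and 4 without WT mouse 546 or WT mouse 560 or with the 6 arrays fitted alone. Pparg, the master factor of fat cells, had 313, 473 and 316 in KO fat against 848, 701 and 816 in WT fat (-1.12 ± 0.19, adjusted p = 0.00261). Cebpa, its partner, overlapped between the groups (421, 649 and 426 in KO fat against 404, 568 and 651 in WT fat, -0.12 ± 0.25). Klf15 fell (-1.22 ± 0.26, adjusted p = 0.00809), and Foxo1 (-0.78 ± 0.18) and Ebf1 (-1.17 ± 0.27) were lower. The call of Foxo1 ended when its probe sets were averaged (adjusted p = 0.226) and without mice 427 and 547 (adjusted p = 0.0619). The call of Ebf1 ended without KO mouse 429 (adjusted p = 0.0503). Of 27 insulin signalling genes 10 were lower and 1 higher, with a median of -0.277. Higher calls numbered 0 with averaged probe sets and 2 without KO mouse 428; lower calls numbered 3 with averaged probe sets. Insr, the receptor, had 214, 269 and 183 in KO fat against 513, 464 and 613 in WT fat (-1.26 ± 0.20, adjusted p = 0.0017). Its substrate gene Irs1 had 193, 236 and 204 in KO fat against 386, 451 and 716 in WT fat (-1.25 ± 0.27, adjusted p = 0.00824). The groups lay apart for both, though the call of Insr ended when its probe sets were averaged (adjusted p = 0.376). Gys1, glycogen synthase (-1.64 ± 0.28), and the kinase gene Pdpk1 (-0.61 ± 0.11) fell. Grb14, an inhibitor of the receptor, was the higher member (245, 279 and 213 in KO fat against 117, 125 and 133 in WT fat, 0.96 ± 0.13, adjusted p = 0.000944). Akt2, the main Akt kinase of fat cells, was lower (-0.81 ± 0.20). The call of Akt2 ended without KO mouse 429 or WT mouse 560 and under 3 other alternatives (adjusted p 0.0581 to 0.175).

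Of 19 tested secreted factors of fat 3 were higher and 3 lower. Lower calls numbered 6 without KO mouse 428. Nrg4, a signal from fat to liver, had 68.1, 139 and 50.3 in KO fat against 292, 423 and 634 in WT fat (-2.45 ± 0.35, adjusted p = 0.00116). Retn, which encodes resistin, had 476, 2016 and 809.6 in KO fat against 4698, 4099 and 5270.5 in WT fat (-2.34 ± 0.40, adjusted p = 0.00245). Agt, angiotensinogen, had 113, 95.0 and 69.6 in KO fat against 515, 197 and 608 in WT fat (-2.13 ± 0.35). KO mouse 428 held the highest KO signal for Nrg4 and Retn. Metrnl rose (556, 718 and 1220.5 in KO fat against 111, 364 and 165 in WT fat, 2.06 ± 0.39), and Adipoq, adiponectin, was not called (-0.36 ± 0.20). Lep, leptin, was higher on every KO array (3031, 4458 and 2568 in KO fat, 2398, 1983 and 1009 in WT fat) without passing the test (0.95 ± 0.94, adjusted p = 0.506). In the list of 22 fat cell markers 9 were lower and 1 higher, among them Pck1, which makes the glycerol backbone of triglyceride (603, 930.0 and 498 in KO fat against 2164, 3128 and 4014 in WT fat, -2.20 ± 0.33). The higher count was 0 without the pair of mice 427 and 547, KO mouse 428, WT mouse 546, WT mouse 547 or WT mouse 560, with no filter or with the 6 arrays fitted alone.

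**Figure D3:**
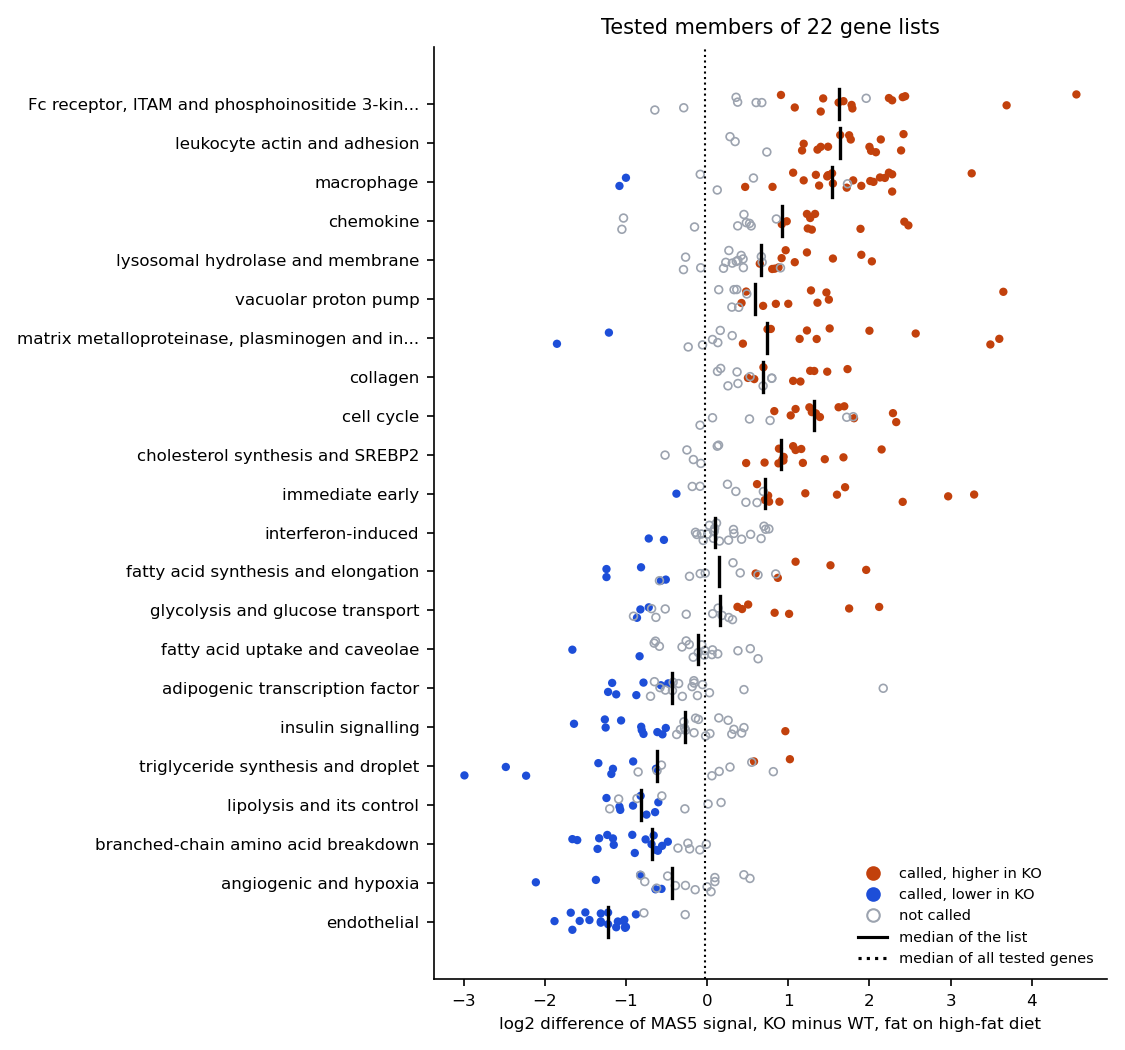
Difference in log2 signal between KO and WT fat on HFD (x axis) for each tested member of 22 gene lists, with called genes filled (red higher, blue lower), the list's median as a bar and the median of all tested genes as a dotted line. Immune, lysosomal, collagen, cell cycle and cholesterol lists lie right of the dotted line, interferon-induced genes lie on it, and amino acid, lipolysis and endothelial lists lie left of it.

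Endothelial genes were lower in KO fat almost without exception. Of 21 tested markers 19 were lower and 0 higher, all 21 differences were below 0, the median was -1.22, and the groups lay apart in 19. Kdr, the main receptor for vascular endothelial growth factor, had 204, 227 and 130.5 in KO fat against 625, 747 and 651 in WT fat (-1.88 ± 0.23, adjusted p = 0.000657). Tek, the angiopoietin receptor, had 214, 264 and 213 in KO fat against 456, 371 and 439.9 in WT fat (-0.88 ± 0.12). Eng, a coreceptor for TGF-β family ligands, had 169.7, 157 and 134 in KO fat against 527, 416 and 539 in WT fat (-1.68 ± 0.23). KO mouse 429 was the lowest array in 18 of the 19 called genes. Ptprb (-1.5 ± 0.21), Pecam1 (-1.22 ± 0.23), the junction gene Cldn5 (-1.31 ± 0.24) and Nos3, the endothelial nitric oxide synthase (-1.12 ± 0.26), fell as well, and the cadherin gene Cdh5 was lower (-1.31 ± 0.23). The call of Cdh5 ended when its probe sets were averaged (adjusted p = 0.106). Vegfa, the growth factor that Kdr binds and that fat cells secrete, had 151, 210.4 and 121 in KO fat against 869, 534 and 670.2 in WT fat (-2.11 ± 0.28, adjusted p = 0.000944). Over the 18 tested angiogenic and hypoxia genes 5 were lower and 0 higher. Lower calls numbered 3 without KO mouse 429. Ndrg1 (-1.37 ± 0.19), which hypoxia induces, and Notch1 (-0.64 ± 0.15) fell, and Hif1a (0.05 ± 0.13) and Angpt1 (0.10 ± 0.37) were not called. Of 14 genes of smooth muscle and pericytes 3 were lower, near the 22.5% called in either direction over all tested genes. Among them were Abcc9 (412, 410.3 and 246 in KO fat against 804, 805 and 705 in WT fat, -1.15 ± 0.18) and Kcnj8 (-0.86 ± 0.21), the 2 parts of a potassium channel of pericytes. In KO mouse 427 the smooth muscle gene Myh11 stood out (KO signals of 1783, 65.4 and 38.6, against 296, 97.2 and 255 in WT mice). Without mouse 427, or without mice 427 and 547, 8 genes of the list were lower. Of 5 lymphatic markers Pdpn, which fibroblasts and macrophages also express, was called higher (309, 375 and 795 in KO fat against 101, 94.7 and 97.3 in WT fat, 2.21 ± 0.30). Lyve1 and Flt4 (-1.44 ± 0.38) were lower, and the call of Flt4 ended without WT mouse 546 or WT mouse 560 and under 2 other alternatives (adjusted p 0.065 to 0.105). The lower count was 1 without WT mouse 546 or WT mouse 560, with averaged probe sets or with the 6 arrays fitted alone and 4 without WT mouse 547.

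Immediate early genes, which cells switch on within minutes of a stimulus, were higher in KO fat. Of 19 tested 11 were higher and 1 was lower, Klf4 (-0.38 ± 0.09). The call of Klf4 ended without WT mouse 546 or WT mouse 560 and under 1 other alternative (adjusted p 0.0545 to 0.0709). Higher calls numbered 6 without the pair of mice 427 and 547 or KO mouse 429 and 7 without WT mouse 546. Egr2 had 414, 424 and 516 in KO fat against 33.2, 80.0 and 36.9 in WT fat (3.29 ± 0.27, adjusted p = 0.000154). Egr3 had 125, 101 and 118 in KO fat against 10.6, 28.2 and 33.2 in WT fat (2.41 ± 0.43). Atf3 had 359.6, 429.5 and 892 in KO fat against 39.9, 120.2 and 59.7 in WT fat (2.97 ± 0.39). Egr2 was even across the KO mice, and Atf3 was highest in mouse 429. Fos had 2094, 1897 and 2363 in KO fat against 908, 541 and 688 in WT fat (1.6 ± 0.23), and its partner Jun rose by 0.76 ± 0.20. The call of Jun ended without KO mouse 427, KO mouse 429 or WT mouse 546 and under 2 other alternatives (adjusted p 0.0506 to 0.0751). Of 14 phosphatases and feedback inhibitors of MAP kinases 3 were higher, Dusp5 among them, while Dusp6 was not called (0.30 ± 0.13). This is near the 22.5% called in either direction over all tested genes. Higher calls numbered 1 without KO mouse 429; lower calls numbered 1 without the pair of mice 427 and 547 or WT mouse 560. The sources used here do not say how the tissue was handled before RNA was extracted, and its part in these genes was not tested.

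Genes of DNA replication and mitosis were higher. Of 18 tested cell cycle genes 12 were higher and 0 lower, with a median of 1.32. Higher calls numbered 7 with averaged probe sets. Mki67, the proliferation marker, had 297, 182 and 337 in KO fat against 71.9, 75.2 and 26.7 in WT fat (2.33 ± 0.49, adjusted p = 0.00698). Mcm5, part of the replicative helicase, had 292, 223 and 319 in KO fat against 106, 131 and 84.0 in WT fat (1.39 ± 0.20, adjusted p = 0.00123), and its partners Mcm2 (1.26 ± 0.27), Mcm3 (1.03 ± 0.22) and Mcm6 (1.29 ± 0.30) rose with it. The call of Mcm6 ended when its probe sets were averaged (adjusted p = 0.222). KO mice 427 and 429 were above mouse 428 in both named genes, and all 3 exceeded the WT mice. Pcna, the polymerase clamp (1.09 ± 0.17), Ccna2, cyclin A2 (1.69 ± 0.28), and Rrm2 of ribonucleotide reductase (1.62 ± 0.29) were called too. E2F factors switch these genes on before replication, and the letters TTTGGCGC are a form of their site. On either strand they occurred in 3 of 19 promoters of the list (15.8%), those of Mcm3, Mcm5 and Mcm6, and in 145 of all 27025 (0.537%). The CCAAT box, common in cell cycle promoters, occurred in 15 of 19 (78.9%) and in 37.9% of all. Mcm5, with 1 E2F match at -149, and Mcm6, with 2 of which the first starts at -110, are shown with the matches in capitals. The sequences are from RefSeq on GRCm38.p6, at chr8:75109259-75109558 (plus strand) for Mcm5 and chr1:128359656-128359955 (minus strand) for Mcm6.
Mcm5: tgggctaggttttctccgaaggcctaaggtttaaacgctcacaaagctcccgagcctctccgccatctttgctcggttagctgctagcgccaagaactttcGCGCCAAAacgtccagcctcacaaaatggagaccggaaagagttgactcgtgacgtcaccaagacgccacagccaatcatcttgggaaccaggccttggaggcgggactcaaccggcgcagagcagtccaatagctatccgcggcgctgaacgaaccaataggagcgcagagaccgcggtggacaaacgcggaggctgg
Mcm6: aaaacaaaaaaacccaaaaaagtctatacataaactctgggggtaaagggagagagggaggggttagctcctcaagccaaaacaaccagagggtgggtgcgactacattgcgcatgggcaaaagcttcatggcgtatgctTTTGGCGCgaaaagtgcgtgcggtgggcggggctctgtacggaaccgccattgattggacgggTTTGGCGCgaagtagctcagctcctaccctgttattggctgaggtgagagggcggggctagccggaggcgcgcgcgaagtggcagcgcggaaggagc

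Cholesterol synthesis was higher along most of the pathway. Of 20 tested genes 14 were higher and 0 lower, with a median of 0.905. The lower count was 1 without WT mouse 546. Early steps were represented by Idi1 (0.89 ± 0.20) and Fdps (428, 246 and 339 in KO fat against 109, 147 and 67.1 in WT fat, 1.68 ± 0.26), and the ring-closing step by Lss (1.18 ± 0.18). Late steps included Nsdhl (267, 263 and 231 in KO fat against 145, 127 and 128 in WT fat, 0.92 ± 0.10, adjusted p = 0.000508), Cyp51 (1.09 ± 0.23) and Dhcr7, the last enzyme (162, 114 and 183 in KO fat against 29.1, 39.4 and 34.0 in WT fat, 2.15 ± 0.29, adjusted p = 0.000944). The KO arrays exceeded the WT arrays for all 3 genes given by array. Srebf2, the factor that drives the pathway, rose by 0.88 ± 0.19, and Sqle was higher by 1.16 ± 0.31. The call of Sqle ended without KO mouse 427, KO mouse 429, WT mouse 546 or WT mouse 547 and under 2 other alternatives (adjusted p 0.0515 to 0.105). The sterol response letters TCACCCCAC occurred in 1 of 17 promoters (5.88%), against 0.522% of all. The carrier was Hmgcs1, an early enzyme, which was not called (-0.17 ± 0.17, adjusted p = 0.503), and 0 of the 12 called genes with a promoter carried the letters. In cholesterol storage and efflux, 1 of 13 genes was higher and 2 lower, near the 22.5% called in either direction over all tested genes. Higher calls numbered 2 without the pair of mice 427 and 547, KO mouse 427 or WT mouse 547 or under quantile normalization and 3 with averaged probe sets; lower calls numbered 1 without KO mouse 427, KO mouse 429 or WT mouse 546, with no filter or with each probe set tested on its own. Mylip, which marks the LDL receptor for degradation, had 577, 443 and 427 in KO fat against 1282, 898 and 1404 in WT fat (-1.30 ± 0.17, adjusted p = 0.000852), and the efflux pump genes Abca1 (-0.16 ± 0.16) and Abcg1 (0.71 ± 0.41) were not called.

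Stress lists showed few or mixed changes. Of 22 glutathione and antioxidant genes 3 were higher and 5 lower. Higher calls numbered 1 without WT mouse 546; lower calls numbered 2 without KO mouse 429 or WT mouse 546, with no filter or with the 6 arrays fitted alone and 3 without WT mouse 560. Gpx3, the secreted peroxidase, had 484, 205 and 455 in KO fat against 1107, 856 and 1689 in WT fat (-1.71 ± 0.33, adjusted p = 0.00433), Gstt1 fell (-1.33 ± 0.19), and Hmox1, heme oxygenase 1, rose (1.64 ± 0.45). The call of Hmox1 ended without KO mouse 429 or WT mouse 546 and under 1 other alternative (adjusted p 0.0555 to 0.0945), and Nqo1 was not called (-0.35 ± 0.25). Of 20 endoplasmic reticulum stress genes 3 were higher and 2 lower, near the 22.5% called in either direction over all tested genes. Higher calls numbered 0 without KO mouse 429, WT mouse 546 or WT mouse 560 or with the 6 arrays fitted alone and 5 without the pair of mice 427 and 547; lower calls numbered 1 without the pair of mice 427 and 547, KO mouse 429 or WT mouse 546. Asns, asparagine synthetase, fell (177, 229.9 and 174 in KO fat against 609, 362 and 1069.7 in WT fat, -1.69 ± 0.30), and Hspa5 (0.25 ± 0.20) and Xbp1 (-0.44 ± 0.16, adjusted p = 0.0631) were not called. Of 10 heat shock genes 1 was called, Bag3 (0.58 ± 0.11). Genes called higher numbered 2 without the pair of mice 427 and 547, KO mouse 427 or WT mouse 547. Of 14 genes of p53 and apoptosis 1 was called, Gadd45b (1.33 ± 0.22), and Cdkn1a was not (0.74 ± 0.32). Higher calls numbered 2 without KO mouse 427, 3 with averaged probe sets and 4 without the pair of mice 427 and 547 or WT mouse 547; lower calls numbered 1 without the pair of mice 427 and 547, KO mouse 427 or WT mouse 547 or with the 6 arrays fitted alone. Of 14 clock genes 2 were higher, with Bhlhe40 (1.34 ± 0.22) the clearer. Genes called higher numbered 1 without KO mouse 428, KO mouse 429, WT mouse 546 or WT mouse 560 or with the 6 arrays fitted alone. The 4 lower genes were all of the Cry and Per repressor families, among them Cry1 (-1.05 ± 0.23) and Per2 (-1.36 ± 0.33). The call of Per2 ended without WT mouse 546 (adjusted p = 0.0541), and Arntl (0.11 ± 0.29) and Nr1d1 (-0.27 ± 0.39) were not called. Without WT mouse 546 only 1 of the 4 was called, without KO mouse 429 only 2 were, and the sources used here do not give the hour at which the tissue was taken.

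The mice of a group were not alike, and the order of the arrays recurred over many genes. Among the 1286 genes called higher, KO mouse 429 was the highest KO array in 974 and WT mouse 547 the highest WT array in 797. Among the 1326 genes called lower, mouse 429 was the lowest KO array in 919 and mouse 428 the highest KO array in 742. Over the macrophage list the median log2 signal relative to the WT mean was 1.11, 1.44 and 1.87 in KO mice 427, 428 and 429, against -0.373, 0.428 and -0.0162 in WT mice 546, 547 and 560. Over the lysosomal list it was 0.398, 0.527 and 0.952 in KO mice, against -0.0864, 0.11 and -0.075 in WT mice. These lists share an order, with KO mouse 429 and WT mouse 547 the highest of their groups, and mouse 429 also held the highest macrophage sum. The endothelial list read -0.994, -0.919 and -1.69 in KO mice, against 0.0212, -0.0562 and -0.0187 in WT mice, again with mouse 429 farthest from WT fat. Branched-chain amino acid breakdown read -0.916, -0.408 and -0.822 in KO mice, against -0.161, -0.127 and 0.261 in WT mice. Lipolysis read -0.922, -0.343 and -1.09 in KO mice, against 0.0413, -0.137 and 0.0431 in WT mice. KO mouse 428 lay nearest to the WT mice in both. Insulin signalling varied less between mice, with -0.31, -0.256 and -0.278 in KO mice, against -0.008, -0.0838 and 0.0675 in WT mice.

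**Figure D4:**
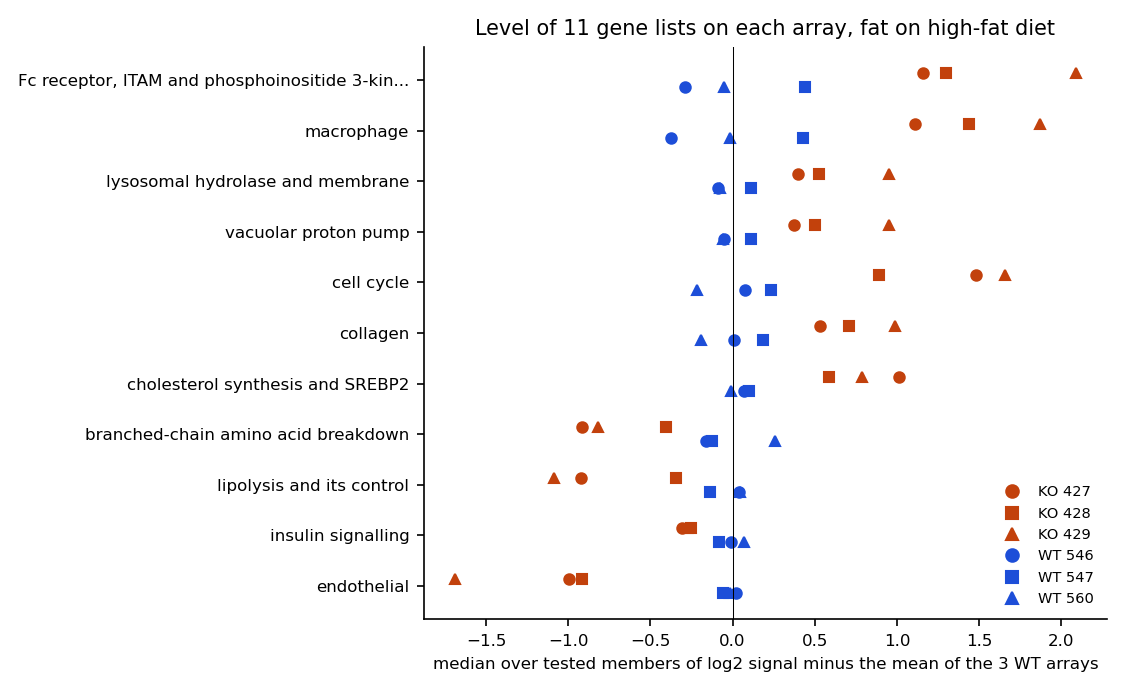
Median over the tested members of 11 lists of the log2 signal minus the mean of the 3 WT arrays (x axis), for each KO mouse (red) and each WT mouse (blue). No KO mouse overlaps a WT mouse in any list, KO mouse 429 is farthest from the WT mice for immune, lysosomal and endothelial lists, and KO mouse 428 is nearest to them for amino acid breakdown and lipolysis.

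The knockout effect was compared with that on ND through the interaction, the difference on HFD minus that on ND. On ND the signals of Ffar4 were 34.2, 33.7 and 35.7 in KO fat (mice 718, 719 and 720) and 62.0, 58.3 and 73.7 in WT fat (mice 686, 687 and 690), and the KO mean was 53.4% of the WT mean. On ND Ffar4 was not called. Its interaction was -1.37 ± 0.30 (adjusted p = 0.0175). The KO signals of Ffar4 lay near 19.3 on both diets, and the part of this in its interaction was not tested. Of 1273 called interactions 437 were above 0 and 836 below, and without KO ND mouse 718 the count was 639. The endothelial list had the most, 17 of 21, all below 0: Kdr had an interaction of -2.60 ± 0.33 (adjusted p = 0.0033), and on ND its difference was 0.72. Macrophage genes had 9 of 27 (8 above 0 and 1, Lyve1, below). Fc receptor and ITAM genes had 7 of 21 (Cd72 3.81 ± 0.52, adjusted p = 0.00343), cell cycle genes 8 of 18 and pump genes 5 of 16 (Atp6v0d2 3.77 ± 0.68, adjusted p = 0.00887), all above 0. Fat cell genes had 8 of 22, lipolysis 7 of 15 and fatty acid oxidation 7 of 22, all below 0, and Plin5 (-2.56 ± 0.42, adjusted p = 0.00631) and Nrg4 (-3.52 ± 0.50, adjusted p = 0.00424) had them below 0 too. Chemokines, collagens and interferon-induced genes had 0, which does not show equal effects on the 2 diets.

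Of the 2612 genes called on HFD, 8 were called on ND as well, which is 0.306% of the HFD calls and 27.6% of the 29 ND calls. Pik3ap1, Fbln2, Enpep, Marcks and Zfp52 had the same direction on both diets. Lama4, Fbln5 and Vamp7 had opposite directions. Lama4 was -0.73 on HFD and 1.07 on ND (interaction -1.80 ± 0.19, adjusted p = 0.00245). Fbln5 was -1.23 on HFD and 1.06 on ND, while Vamp7 was 0.58 on HFD and -0.94 on ND. On HFD the call of Fbln5 ended when its probe sets were averaged (adjusted p = 0.208) and that of Vamp7 ended without KO mouse 429, WT mouse 546 or WT mouse 560 and under 1 other alternative (adjusted p 0.0506 to 0.0929). The interactions of Lama4 and Fbln5 were not called when their probe sets were averaged (adjusted p = 0.154 and 0.0887). The ND arrays had summed signals of 40060 to 65400 over the 11 epididymis and sperm genes, against 31.0 to 3356 on the HFD arrays, and the part of this difference in the interactions was not tested.

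**Figure D5:**
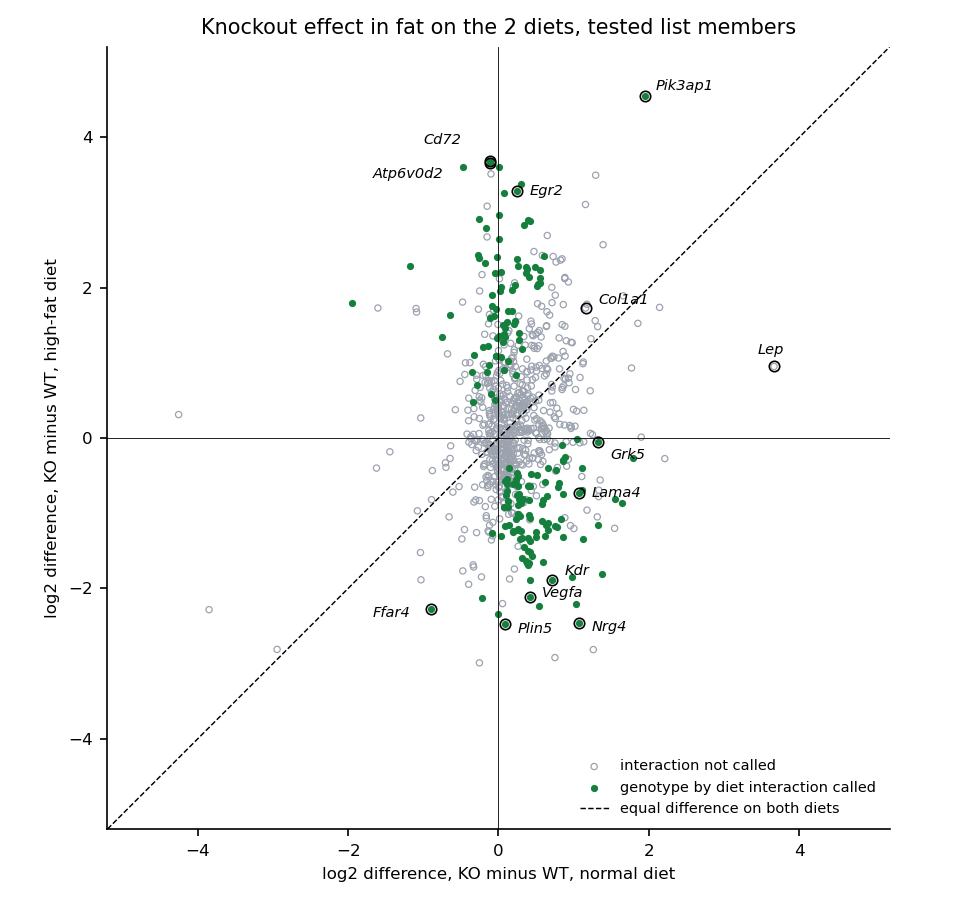
Log2 difference between KO and WT fat on ND (x axis) and on HFD (y axis) for the 855 tested list members, with the 180 whose interaction was called in green and the line of equal differences dashed. Called interactions lie above the line for immune, pump and early genes such as Cd72, Atp6v0d2 and Egr2, and below it for Kdr, Vegfa, Plin5 and Nrg4.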

How the data were processed

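Total RNA of epididymal fat from separate mice was read on Affymetrix arrays with 45101 probe sets, 3 arrays per genotype and diet. Per the submitters' processing notes, the deposited intensity values are MAS5 signals, 1 per probe set, whose version, scaling target and genome build are not given in the sources used here. On the fat HFD arrays they ran from 0.02 to 10289.

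Signals of the 12 fat arrays were floored at their 10th percentile (1.08) and taken to log2. Each gene was read by its brightest probe set among the 34945 with 1 gene symbol (932 had several and 9160 none), which left 18193 genes. Genes with a mean signal under that of the median probe set (19.3) were not tested, which left 11613. limma 3.58.1 in R 4.3.3 fitted 4 group means (residual df 8) with empirical Bayes moderation and an intensity trend, and p-values were adjusted by the Benjamini-Hochberg method. The steps were run on simulated data in which genes varied independently and 200 were changed. That setting does not cover changes shared by many genes, as between the mice here. Numbers of mice pair no arrays, since each fat array came from another mouse.

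The text names Ffar4, the 15 largest rises and 15 largest falls among called genes with separate groups, 5 of each with 1 group mean under 19.3, the first 3 genes and up to 4 called genes of smallest p of each of 57 lists, the 5 largest interactions in each direction, and other list members by value; some first genes that were not called appear only in the counts. Of 1070 listed genes 984 were on the array and 855 were tested. The genes and lists were chosen with earlier results of these data known. Lower bounds set the brighter mean against 19.3; this rule was set with the values already known. Quantile normalization, no filter, no floor, log2(signal + 16), averaged or separate probe sets, fits of the 2 groups alone, and fits without 1 mouse or without mice 427 and 547 were tried.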

Additional observations from a re-analysis of the deposited data

Results flagged for a closer look

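For 21 genes the difference between KO and WT fat differed between the diets by limma's interaction test with Benjamini-Hochberg adjustment, HFD minus ND. Ffar4, which was called lower in KO fat on HFD and was lower but not called on ND, had an interaction of -1.37 (adjusted p = 0.0175). It came from -2.27 on HFD and -0.90 on ND. Of the others 10 had the largest called interactions, 5 in each direction. Rgs1 had 4.19 (adjusted p = 0.00343), from 3.51 on HFD and -0.673 on ND, and B3galt2 had -4.1 (adjusted p = 0.0156), from -2.59 on HFD and 1.51 on ND. For the other 8 of these at least 1 of the 4 group means lay under 19.3, so that the fitted value is not a measured size, and their group means are given instead. Npy, neuropeptide Y (7.95), averaged 29.0 in KO and 14.8 in WT fat on HFD, and 5.46 in KO and 714 in WT fat on ND. Akap3, a sperm protein (5.92), averaged 20.9 in KO and 6.81 in WT fat on HFD, and 15.9 in KO and 903 in WT fat on ND. Gpr50 (5.58) averaged 483 in KO and 13.5 in WT fat on HFD, and 8.77 in KO and 9.51 in WT fat on ND. Cdkn3, a cell cycle phosphatase (4.42), averaged 44.9 in KO and 16.1 in WT fat on HFD, and 12.4 in KO and 147 in WT fat on ND. Cd209g, a lectin of the DC-SIGN family (-4.3), averaged 86.2 in KO and 125.5 in WT fat on HFD, and 61.3 in KO and 5.61 in WT fat on ND. Ankef1 (-3.63) averaged 93.5 in KO and 389 in WT fat on HFD, and 46.9 in KO and 17.5 in WT fat on ND. D430019H16Rik (-3.63) averaged 50.3 in KO and 168 in WT fat on HFD, and 34.6 in KO and 10.2 in WT fat on ND. Tmem88b (-3.61) averaged 12.8 in KO and 86.5 in WT fat on HFD, and 38.0 in KO and 25.8 in WT fat on ND. The call of Akap3 was lost without any 1 of 10 mice and under 3 other alternatives (adjusted p 0.0512 to 0.0887), that of Cdkn3 without any 1 of 7 mice (0.0526 to 0.0743) and that of Ankef1 when its probe sets were averaged (0.674). Summed epididymis and sperm signals were 40060 to 65400 on ND arrays and 31.0 to 3356 on HFD arrays, and their part in these interactions was not tested. The remaining 10 are described with their groups: Cd72 (3.81), Atp6v0d2 (3.77) and Vamp7 (1.52) had interactions above 0, and Nrg4 (-3.52), Kdr (-2.60), Plin5 (-2.56), Fbln5 (-2.29, adjusted p = 0.00257), Ivd (-2.06), Hibch (-1.91) and Lama4 (-1.80) below 0.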

How the results depend on the processing

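The count of genes called on HFD was 2612 and lay between 1879 (the 2 groups fitted alone) and 3907 (each probe set tested on its own) under the alternatives that left out no mouse alone. Leaving out 1 mouse gave 1569 (without KO mouse 429) to 2679 (without KO mouse 427), with 1642 without WT mouse 560. Ffar4 was called under every alternative, at -1.76 on log2(signal + 16) and -2.06 to -2.47 otherwise. On ND, where 29 genes were called, the count was 81 after quantile normalization, 18 with averaged probe sets, 46 with each probe set tested on its own and 9 with the 2 groups fitted alone. Leaving out 1 ND mouse gave 7 (without KO mouse 718) to 408 (without WT mouse 687), with 18, 9 and 11 without mice 719, 720 and 686. Interactions numbered 1273, 848 with averaged probe sets, and 639 (without KO ND mouse 718) to 1530 (without WT ND mouse 687) without 1 mouse, with 767, 784, 722, 699 and 680 without mice 429, 546, 560, 719 and 720. Averaging probe sets turned the sign of Ackr4 to -0.188 (adjusted p = 0.68), of Xaf1 to 1.87 (adjusted p = 0.000423) and of Zap70 to 0.541 (adjusted p = 0.359). Of 281 called genes examined, 198 kept the call under every alternative with a value, and the other 83 lost it under at least 1, 51 of them without KO mouse 429. The cause of these shifts was not tested. No paired analysis was possible because each fat array came from a different mouse. Of the 1132 called genes with other probe sets above 19.3, 1001 had all of them on the same side and 131 had 1 or more on the other. Array signal near 19.3 and 3 mice per group limit what can be seen for dim genes such as cytokines and lymphocyte markers.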

Other observations

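Lists that the text has not described gave few calls on HFD. Of 9 tested hepatocyte genes 0 were called, with a median of 1.24, and Alb, albumin, had 345, 568 and 442 in KO fat and 142, 434 and 83.5 in WT fat. Higher calls numbered 2 without WT mouse 547 and 4 without the pair of mice 427 and 547. Of 13 mesothelial genes 0 were called, and Msln, mesothelin, had 29.4, 31.8 and 15.7 in KO fat and 25.2, 49.1 and 17.7 in WT fat. The lower count was 1 without KO mouse 427 and 3 without the pair of mice 427 and 547. Of 5 skeletal muscle genes 0 were called, and Ckm, muscle creatine kinase, had 70.4, 3.66 and 1.82 in KO fat and 60.7, 337 and 2.23 in WT fat, with most of the signal in WT mouse 547. Lower calls numbered 1 without the pair of mice 427 and 547 or KO mouse 427, with no filter or with the 6 arrays fitted alone and 2 without WT mouse 560. Epididymis and sperm genes passed the signal level through the ND arrays, and with the 6 HFD arrays fitted alone 1 of them was tested, so no difference is given for them; Adam7 and Defb15 were called on HFD, with means of 9.40 and 6.56 in KO fat against 1.21 and 2.10 in WT fat, all under 19.3. Of 3 Schwann cell genes 0 were called, and of 2 erythrocyte genes Alas2, of heme synthesis, was lower.

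Called genes that the naming rule gives and that the text has not yet named follow, as log2 differences of KO minus WT on HFD. Cd68 (2.28 ± 0.36), of macrophage lysosomes, and Cybb (2.05 ± 0.27), of the phagocyte oxidase, were higher under every alternative. Also higher were the B cell gene Cd22 (1.71 ± 0.43), the mast cell chymase gene Cma1 (2.38 ± 0.57), Cxcl12 (0.92 ± 0.18) and its receptor gene Cxcr4 (1.01 ± 0.26), the phosphatase gene Dusp1 (1.11 ± 0.29), Spred1 (0.63 ± 0.17), the microfibril gene Mfap2 (1.07 ± 0.26) and the antioxidant gene Srxn1 (1.04 ± 0.26). So were the endoplasmic reticulum genes Sdf2l1 (1.51 ± 0.39), Manf (0.77 ± 0.20) and Ddit3 (0.48 ± 0.14), while Chac1 (-1.34 ± 0.34) was lower. Other lower genes were Zbtb46 (-1.03 ± 0.26) of dendritic cells, Slc27a1 (-0.83 ± 0.23), a fatty acid transporter, Adcy6 (-0.75 ± 0.19), an adenylyl cyclase, Scarb1 (-0.66 ± 0.22), the HDL receptor, and Per3 (-0.77 ± 0.19). Of the citrate cycle and respiratory chain, Dlst (-0.43 ± 0.09), Fh1 (-0.40 ± 0.11), Ogdh (-0.40 ± 0.12) and Uqcrc2 (-0.49 ± 0.13) were lower, and of the hypoxia and vessel lists Egln1 (-0.56 ± 0.13) and Notch3 (-0.63 ± 0.18). Of these 25 genes 23 lost the call under 1 to 10 alternatives (adjusted p 0.0506 to 0.916), 20 of them without KO mouse 429, 12 without WT mouse 546, 12 without WT mouse 560, 3 without WT mouse 547, and 2 each without KO mice 427 and 428, left out 1 at a time.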
